A study of Mus musculus with 63 samples.

Results

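The members described here were the CHD (chromodomain helicase DNA-binding) remodellers other than *Chd2*: *Chd1*, *Chd3*, *Chd4*, *Chd5*, *Chd6*, *Chd7*, *Chd8* and *Chd9*. These 8 genes were taken by family name, not by any measured value, from the 24990 rows of the gene tables, where each had 1 row of its own (Entrez 12648, 216848, 107932, 269610, 71389, 320790, 67772 and 109151, in that order). *Chd2* (Entrez 244059) was kept beside them for reference. Their levels were described in each tissue, in each mutant against its own wild type (WT) libraries, and in an immunoprecipitation of RNA with a CHD2 antibody.

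CHD proteins share paired chromodomains, which bind histone tails, and an ATPase motor of the SNF2 type that slides, ejects or assembles nucleosomes. Subfamily I holds CHD1 and CHD2. CHD1 recognises histone H3 methylated at lysine 4 and works at transcribed genes. Subfamily II holds CHD3, CHD4 and CHD5, which serve as alternative motors of the nucleosome remodelling and deacetylase (NuRD) complex, and CHD4 also works with ADNP in the ChAHP complex. Subfamily III holds CHD6, CHD7, CHD8 and CHD9. Loss of 1 copy of *CHD7* causes CHARGE syndrome in humans, and *CHD8* is among the genes most often mutated in autism.

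The study asked how *Chaserr*, a long noncoding RNA transcribed just upstream of *Chd2*, sets the level of *Chd2*. The *Chaserr* null allele was a CRISPR deletion of the promoter and first exon, in 2 founder lines used interchangeably, and the *Chd2* m allele was a small frameshift deletion in an early exon. The paper reports that the m allele strongly lowered CHD2 protein. In tissues of *Chaserr*-/- *Chd2*m/m mice it found CHD2 protein no higher than in WT. For the double mutants *Chaserr* was deleted anew in *Chd2*m/m mice. Founders were CB6F1 hybrids, later crossed back to C57BL/6 for a few generations, so the background is mixed. Poly(A) RNA was sequenced from *Chaserr*+/- and WT embryos at embryonic days E9.5 and E13.5, from *Chaserr*+/- and WT adult brains, and from mouse embryonic fibroblasts (mEFs) in 4 sets, each with its own WT cultures: set a with *Chaserr*+/-, set b with *Chaserr*-/-, set c with *Chd2*m/m and set d with *Chaserr*-/- *Chd2*m/m mEFs. Each group held 3 libraries, except 2 of *Chd2*m/m mEFs. RNA immunoprecipitation (RIP) gave 2 libraries each with the CHD2 antibody, with control IgG and of input, labelled as Neuro2a, a mouse neuroblastoma line, and 12 ATAC-seq libraries came from mEFs of sets b and d. The mEFs were primary cultures of E13.5 embryos without head and liver, and sex was not given. The titles say that the WT of sets a and b shared a pregnancy with their mutants, so p-values there measure the spread within it. In set d the titles name a *Chd2*+/m cross for the mutants and a *Chaserr*+/- *Chd2*+/m cross for the WT, so whether the RNA libraries of set d are of matched litters is not clear. For embryos and brains the labels give no litters, and the p-values measure only the spread between these libraries.

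Total counts per library ran from 7621335 to 33192002. The targeted genes moved as the genotypes said. *Chd2* rose from between 5.4 and 6.41 TPM (a level scaled to transcript length and library depth) in WT mEFs of set b to between 14.92 and 18.15 TPM in *Chaserr*-/- mEFs, in which *Chaserr* was listed at 0. Markers of the labelled tissues were present, with a summed level of 10 neuronal genes between 4397 and 5779 TPM in WT brain and of 6 fibroblast genes between 1101 and 4474 TPM in WT mEFs. The fibroblast sum was 756 to 920 TPM in WT brain, where *Thy1* alone stood at 699 to 827 TPM. At its lower end in mEFs the sum thus separates them little from brain. Library kits differed: embryos and replicate 3 of both brain groups were made with TruSeq, and the other brains and all mEFs with Lexogen SENSE. A difference between mEFs and embryos cannot be told apart from the kit.

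The members lie on 7 chromosomes (mm9, annotation GENCODE vM1). *Chd1* spans chr17:15841931-15909574 on the plus strand and *Chd3* chr11:69156775-69182928 on the minus strand. *Chd4* spans chr6:125045999-125080609 (plus) and *Chd5* chr4:151712760-151764303 (plus). *Chd6* lies at chr2:160772714-160934811 (minus), *Chd7* at chr4:8617553-8794806 (plus), *Chd8* at chr14:52817826-52857466 (minus) and *Chd9* at chr8:93352734-93578407 (plus). The 150 bases upstream of 2 starts are shown because an accessible peak lay at the first and none at the second, as described with the ATAC-seq peaks. Capitals mark CG dinucleotides, each sequence reads 5′ to 3′ on the strand of its gene, and no annotated exon overlaps them.
Chd6, chr2:160934812-160934961, minus strand: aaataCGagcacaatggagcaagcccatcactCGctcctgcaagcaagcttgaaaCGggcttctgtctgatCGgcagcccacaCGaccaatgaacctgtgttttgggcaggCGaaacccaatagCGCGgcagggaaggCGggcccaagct
Chd8, chr14:52857467-52857616, minus strand: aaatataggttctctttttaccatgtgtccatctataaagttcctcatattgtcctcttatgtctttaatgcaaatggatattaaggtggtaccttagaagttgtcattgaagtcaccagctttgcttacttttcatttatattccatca
The *Chd6* sequence held 9 CG dinucleotides and the *Chd8* sequence 0. The median over 11163 genes of the chromosomes of these members and of *Chd2* was 5, and 85.8% of those genes held at least 1. *Chd7* had 28, *Chd9* 13, *Chd4* 12, and *Chd3* and *Chd5* 10 each.

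Levels in WT tissues differed from member to member, also within subfamilies. In E9.5 embryos *Chd4* was the most abundant member, in E13.5 embryos and adult brain *Chd3* was, and in all 4 sets of WT mEFs *Chd4* was again. Among the means of the 7 WT groups, *Chd5* spanned 323-fold, *Chd7* 51.1-fold and *Chd1* 13.1-fold. *Chd9* spanned 2.26-fold, the least of the 8 members, and *Chd3*, *Chd4*, *Chd6* and *Chd8* spanned 3.45- to 5.99-fold.

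**Figure D1:**
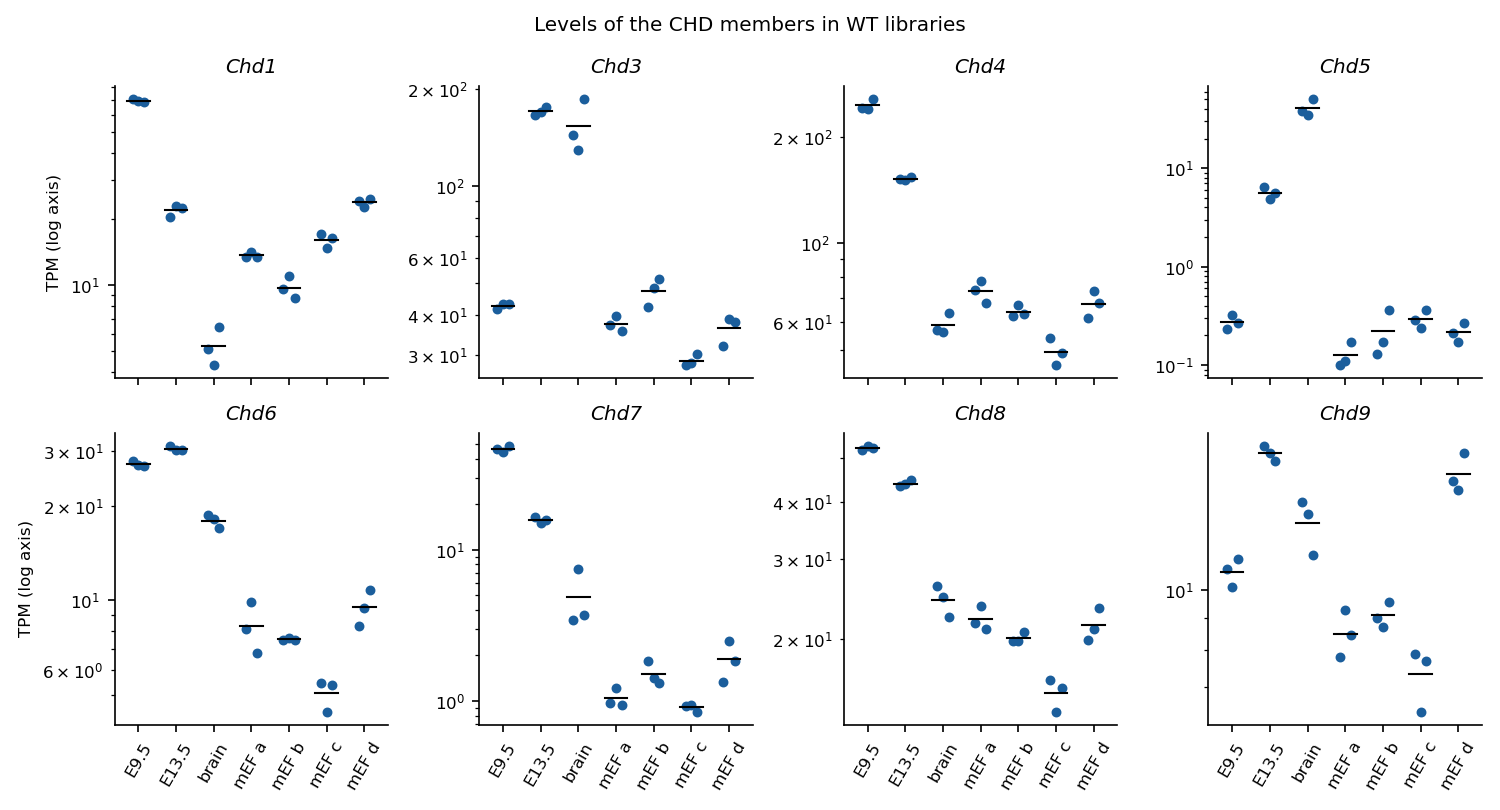
TPM of each CHD member (log axis, own range for each gene) in the 7 WT groups, with 3 libraries as points and their mean as a line. mEF a to d are the WT mEFs of the 4 sets. *Chd5* was highest in brain and *Chd1*, *Chd4*, *Chd7* and *Chd8* in E9.5 embryos, and *Chd1* differed 2.84-fold between the lowest and the highest WT mEF library.

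*Chd1*, the closest relative of *Chd2*, measured 70.45, 69.19 and 68.12 TPM in WT E9.5 embryos, 20.42, 22.84 and 22.54 TPM at E13.5, and 5.08, 4.31 and 6.43 TPM in brain. The 3 groups did not overlap, and the level fell at each step. On the scale of normalised counts, *Chd1* fell by 1.93 on the log2 scale (SE 0.11) from E9.5 to E13.5 and was 1.94 lower in brain than in E13.5 embryos (edgeR, adjusted p = 5.63e-08 and 1.74e-08). *Chd2* took another course only from E9.5 to E13.5, with a mean of 25.1 TPM in E9.5 and 26.0 TPM in E13.5 embryos. In brain *Chd2* was lower as well, with a mean of 9.35 TPM.

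Among the NuRD motors, *Chd3* measured 41.74, 43.12 and 43.11 TPM in WT E9.5 embryos and 166.05, 169.43 and 176.02 TPM in E13.5 embryos. *Chd4* went the other way, from 241.98, 239.35 and 255.43 TPM to 152.29, 150.92 and 153.56 TPM. Both pairs of groups were apart, with *Chd3* 1.73 higher (SE 0.11) and *Chd4* 0.96 lower (SE 0.07) on the log2 scale at E13.5 (adjusted p = 1.02e-07 and 5.02e-07). *Chd5*, known mainly from neurons and testis, stood at 0.23, 0.32 and 0.27 TPM at E9.5, at 6.42, 4.84 and 5.53 TPM at E13.5 and at 37.72, 34.83 and 50.06 TPM in brain. It rose by 4.10 (SE 0.19) to E13.5 and was 2.98 higher (SE 0.16) in brain, on the log2 scale. Neuronal markers rose over the same steps, from a summed 119 to 141 TPM in E9.5 embryos to 1309 to 1567 TPM in E13.5 embryos, and their part in the rise of *Chd5* and *Chd3* was not tested. In whole embryos and brain, a larger share of a cell type and more RNA per cell cannot be told apart. In mEFs *Chd5* rested on 7 to 39 counts per library.

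In subfamily III, *Chd7*, a remodeller of neural crest and neural progenitors, measured 46.21, 44.07 and 48.71 TPM in WT E9.5 embryos, 16.55, 14.95 and 15.68 TPM in E13.5 embryos and 0.97, 1.22 and 0.94 TPM in WT mEFs of set a. In brain, replicate 2 stood at 7.45 TPM, apart from 3.45 and 3.69 TPM in the others. *Chd8* moved less, from 51.95, 53.15 and 52.54 TPM at E9.5 to 43.28, 43.73 and 44.71 TPM at E13.5, and the groups were apart. *Chd9* was the only one of the 4 to be called higher at E13.5 than at E9.5, from 10.81, 10.11 and 11.19 TPM to 17.02, 16.61 and 16.09 TPM (log2 0.36, SE 0.09). For *Chd6* the scales pointed opposite ways. TPM was higher at E13.5, at 27.85, 27.01 and 26.76 TPM at E9.5 and 31.04, 30.21 and 30.11 TPM at E13.5, and the groups were apart. In normalised counts *Chd6* was lower, by a log2 difference of -0.11 (95% interval -0.33 to 0.11), and was not called.

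From E9.5 to E13.5, 3 of the 8 members were called higher (*Chd3*, *Chd5*, *Chd9*) and 4 lower (*Chd1*, *Chd4*, *Chd7*, *Chd8*), where 63.3% of all 16598 rows tested were called (34.3% higher and 29% lower). Between brain and E13.5 embryos, *Chd5* was called higher and 6 members lower, at a background of 76.3% (36.8% higher and 39.5% lower). *Chd3* was not called in that comparison (log2 -0.05, SE 0.11). With the TruSeq brain library alone, which shares its kit with the embryos, *Chd3* stood at 0.20. That arm then holds 1 library, assumed to vary like the other groups. Between WT mEFs of set a and E13.5 embryos 5 members were called lower, at a background of 74.6% (33.9% higher and 40.8% lower): *Chd5* fell by 4.61, *Chd7* fell by 3.11, *Chd3* fell by 1.37, *Chd6* fell by 1.08 and *Chd4* fell by 0.24 on the log2 scale. The median over all rows in that comparison was -0.20, and *Chd4* was no longer called with a gene length correction (log2 -0.04). The scales differed for these members. Mean TPM was lower in mEFs for all 8, by 1.6-fold for *Chd1*, 1.95-fold for *Chd9*, 1.99-fold for *Chd8* and 2.08-fold for *Chd4*. The log2 differences in normalised counts were 0.13 (SE 0.11), -0.15, -0.18 and -0.24 for the same genes.

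The other chromatin genes of 3 lists gave context. Over all rows, 34.3% were called higher and 29% lower at E13.5 than at E9.5, 36.8% and 39.5% in brain and 33.9% and 40.8% in mEFs. Of 12 NuRD and ChAHP partners tested, none was called higher and 6 were called lower at E13.5 than at E9.5. *Hdac1*, the deacetylase subunit, fell by 0.72 and *Rbbp7*, a histone chaperone, by 0.83 on the log2 scale. Against E13.5 embryos, 2 partners were higher and 8 lower in brain, and 8 were higher and 3 lower in mEFs, among them *Mbd2*, a methyl-CpG binding subunit, at 1.63. Of 19 SNF2 ATPases outside the family, 2 were called higher and 17 lower at E13.5 than at E9.5. *Smarca2*, a motor of the SWI/SNF complex, was 1.95 higher, and *Btaf1*, which removes TBP from DNA, 1.37 lower. In brain 1 was higher and 15 lower, with *Hells*, a remodeller of dividing cells, 5.36 lower. Of 6 genes of the FACT histone chaperone and histone H3.3, 4 were lower at E13.5 and 6 in brain, with *Supt16* falling by 1.78 and 1.56.

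The order of the levels within a group was mostly well separated. In E9.5 embryos *Chd4* was followed by *Chd1*, *Chd8* and *Chd7*, and *Chd5* came last. In E13.5 embryos the ranges of *Chd9* and *Chd7* overlapped, and in brain those of *Chd1* and *Chd7*. Each member was also compared with 14743 rows over the 21 WT poly(A) libraries by Pearson's r of log2(TPM + 1). The nearest patterns were *Cpsf2* for *Chd1* (r = 0.989), *Podxl2* for *Chd3* (0.983), *Thrap3* for *Chd4* (0.986) and *Nwd2* for *Chd5* (0.998). They were *Kmt5b* for *Chd6* (0.985), *Acvr2b* for *Chd7* (0.991) and *Prdm15* for *Chd8* (0.986). Within the family, *Chd8* was nearest to *Chd2* (0.963) and *Chd4* (0.959), *Chd3* to *Chd5* (0.877), and *Chd1* and *Chd5* ran opposite (-0.53). These libraries fall into 4 tissues with 2 kits, so r mainly describes the order of tissues.

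As shares of the summed TPM of *Chd1* to *Chd9*, *Chd4* held 47.2% in WT E9.5 embryos, 31.5% at E13.5, 18.0% in brain and 42.6% in mEFs of set a. *Chd3* held 8.21%, 35.3%, 46.5% and 21.9%, and *Chd5* reached 12.4% in brain. *Chd1* held 13.3% at E9.5 and 1.6% in brain.

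**Figure D2:**
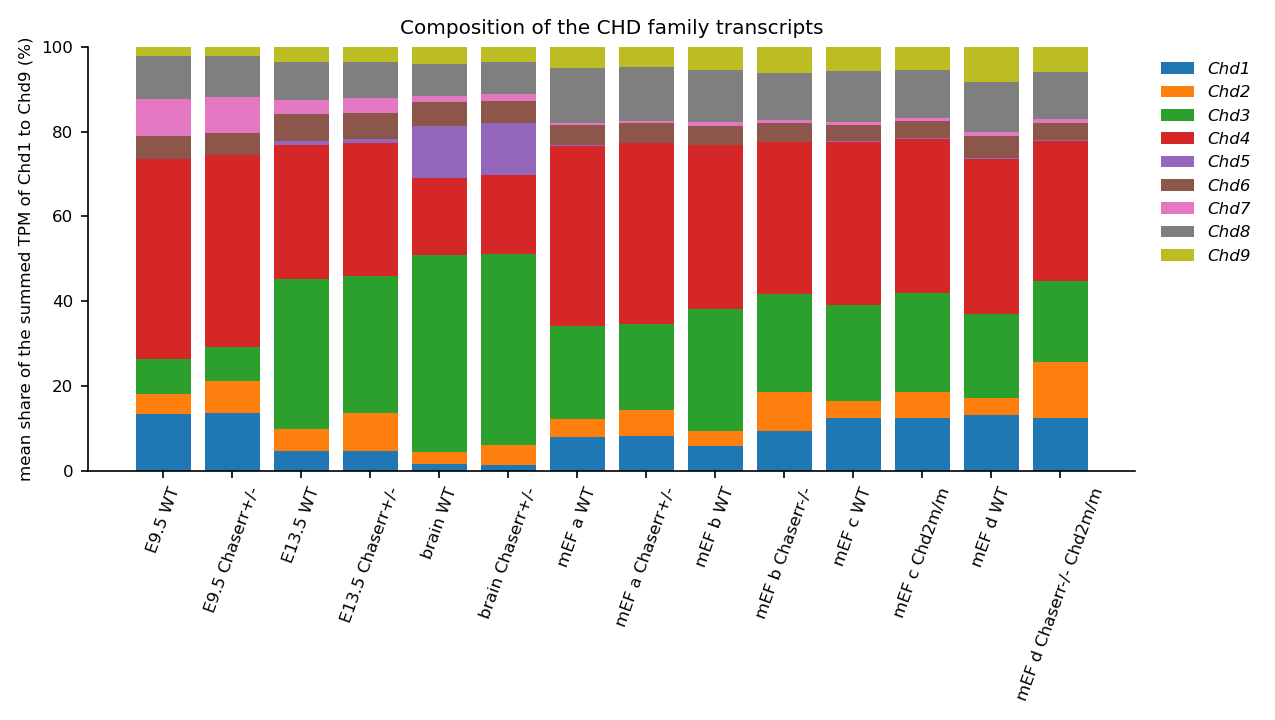
Mean share (%) of each gene in the summed TPM of *Chd1* to *Chd9*, as stacked bars for 14 groups of 3 libraries (2 in *Chd2*m/m). *Chd4* took 47.2% in WT E9.5 embryos and *Chd3* 46.5% in WT brain, and the *Chd2* band was wider in each mutant than in its own WT.

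The mutants addressed whether the other remodellers changed where the *Chd2* transcript changed. None of the 8 members was called in any of the 7 comparisons with edgeR (7 of 8 were tested in *Chaserr*-/- mEFs, where *Chd5* had too few counts). Few rows were called at all: 0% of 14500 in E9.5 embryos, 0.0314% of 15946 in E13.5 embryos, 0% of 14911 in brain, 0.173% of 13282 in *Chaserr*+/- mEFs, 0.118% of 13580 in *Chaserr*-/- mEFs, 0.0145% of 13777 in *Chd2*m/m mEFs and 0.0924% of 14076 in *Chaserr*-/- *Chd2*m/m mEFs. In brain, where the spread was largest, the widest 95% interval, that of *Chd7*, ran from -0.67 to 1.23 on the log2 scale. A change within it could have been missed. That of *Chd4* ran from -0.11 to 0.62. These intervals come from a fit without the pairing of brain libraries or a term for the kit. At an unadjusted p under 0.05, 0 members passed in E9.5 embryos, E13.5 embryos, brain, *Chaserr*+/- and *Chd2*m/m mEFs (3.12%, 6.34%, 2.47%, 8.36% and 4.51% of all rows). In *Chaserr*-/- mEFs 1 member passed (33.9% of all rows) and in *Chaserr*-/- *Chd2*m/m mEFs 2 did (9.89%). With DESeq2 the only member called in any mutant was *Chd1* in *Chaserr*-/- mEFs.

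**Figure D3:**
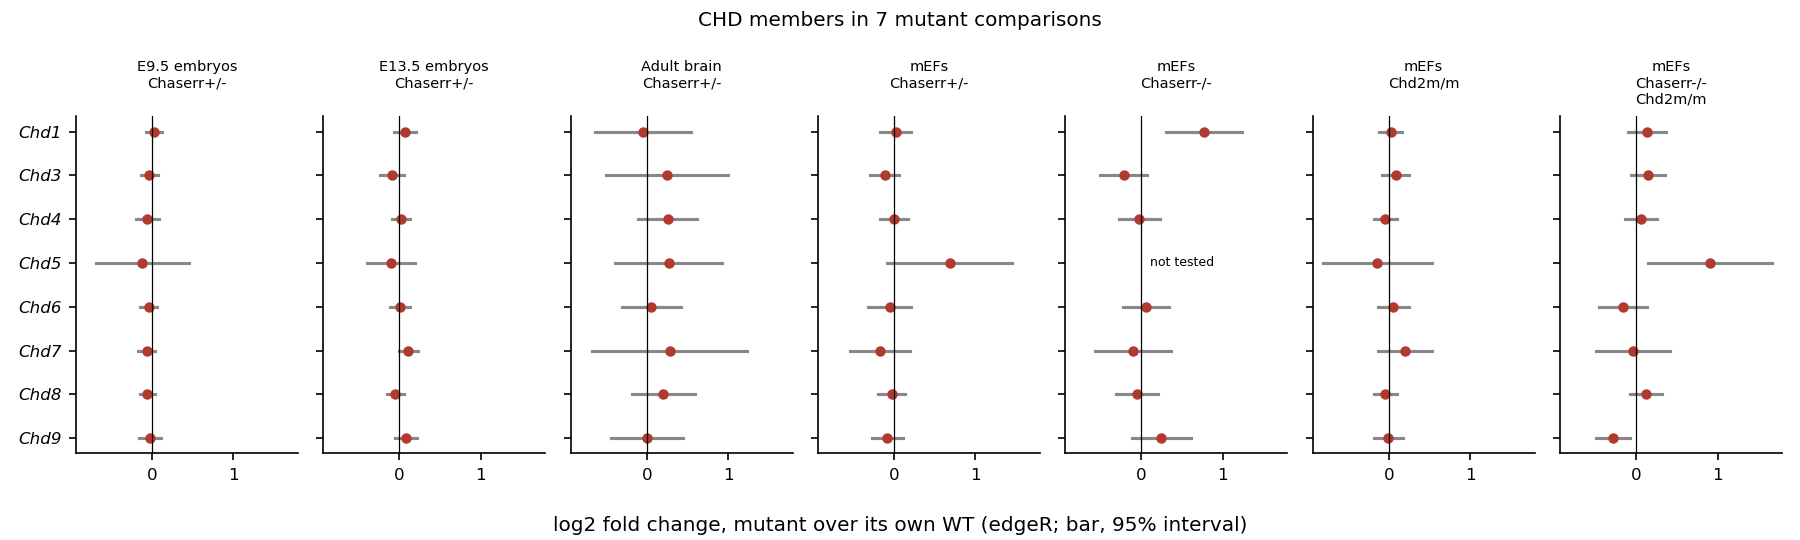
Log2 fold change of each member in a mutant over its own WT libraries (edgeR, points) with its 95% interval (bars), in 7 comparisons. Points lay from -0.28 to 0.90, and the interval of *Chd1* in *Chaserr*-/- mEFs ran from 0.31 to 1.23.

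In *Chaserr*+/- embryos the intervals were narrow. *Chd2* rose from between 24.7 and 25.8 to between 36.5 and 42.9 TPM at E9.5, while the log2 fold changes of the members ran from -0.12 (*Chd5*) to 0.02 (*Chd1*). Apart from *Chd5*, no 95% interval reached below -0.20 or above 0.12. At E13.5 the fold changes ran from -0.10 (*Chd5*) to 0.11 (*Chd7*) and the intervals without *Chd5* from -0.24 to 0.23. *Chd1*, for example, measured 67.78, 69.68 and 69.62 TPM in *Chaserr*+/- E9.5 embryos, within or next to the 68.12 to 70.45 TPM of WT embryos. In normalised counts, the 1 member whose groups did not overlap at E9.5 was *Chd8*, lower in *Chaserr*+/- embryos, and none was apart at E13.5 (9.62% of all rows, 4.28% lower, and 12.8%).

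In *Chaserr*+/- brains *Chd4* and *Chd8* were apart in normalised counts, both higher (9.22% of all rows did not overlap, 4.11% higher), and the median log2 fold change of the 8 members was 0.23 against 0.01 over all rows. *Chd3* measured 138.66, 123.48 and 300.14 TPM in *Chaserr*+/- and 144.35, 129.60 and 185.96 TPM in WT brains. Replicate 3, the TruSeq library, was highest in both groups and its *Chaserr*+/- value lay far above the rest, while the other 2 *Chaserr*+/- libraries lay below or within the WT range. *Chd5* had the same shape, with 41.75, 33.98 and 75.70 TPM against 37.72, 34.83 and 50.06 TPM. *Chd4* measured 61.97, 66.32 and 85.79 TPM against 56.86, 56.14 and 63.26 TPM, and overlapped on this scale. *Chd8* was apart in TPM too, at 26.50, 28.67 and 30.67 TPM against 26.21, 24.69 and 22.32 TPM (log2 0.20, 95% interval -0.18 to 0.59). Markers of other cells differed too, with none called: all 6 astrocyte and oligodendrocyte markers lay lower in *Chaserr*+/- brains (median log2 -0.54), and 7 macrophage markers had a median of -0.39. At an unadjusted p under 0.05, 1 of the 6 and 1 of the 7 passed, beside 2.47% of all rows. Their part in the values of the members was not tested.

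In mEFs of set a the members other than *Chd5* stayed between -0.18 (*Chd7*) and 0.02 (*Chd1*), with intervals from -0.55 to 0.21, while *Chd2* rose from between 6.78 and 7.35 to between 9.97 and 11.32 TPM. In *Chd2*m/m mEFs, where the *Chd2* transcript stood at 7.76 and 8.19 against 4.82 to 5.24 TPM, the members other than *Chd5* ran from -0.04 to 0.20. *Chd1* measured 15.67 and 16.84 TPM there against 17.07, 14.76 and 16.35 TPM, with an interval from -0.12 to 0.16. No member was apart in normalised counts in either comparison (14.5% and 20.7% of all rows). In TPM *Chd7* was apart in *Chd2*m/m mEFs, at 0.96 and 1.12 against 0.93, 0.94 and 0.85 TPM.

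*Chd1* in *Chaserr*-/- mEFs had the largest fold change of the tested members in set b. It measured 9.54, 10.94 and 8.72 TPM in WT and 23.69, 12.79 and 15.76 TPM in *Chaserr*-/- mEFs. The groups did not overlap, as was true of 43.2% of all rows in this comparison (21.8% higher), and the mean was 1.79-fold that of WT. The log2 fold change was 0.77 (SE 0.21), with an adjusted p = 0.0541 by edgeR's quasi-likelihood test. DESeq2 called it (0.79, adjusted p = 0.0058), as it did 13.7% of the rows it tested. The other 6 tested members ran from -0.22 (*Chd3*) to 0.25 (*Chd9*).

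Several measurements stood beside this value. WT mEFs of the 4 sets themselves ranged from 8.72 to 24.80 TPM for *Chd1*, with set b the lowest, and all 3 *Chaserr*-/- libraries lay within that range. With the WT mEFs of set a added to the controls, the log2 fold change was 0.51 (edgeR, adjusted p = 0.19). That fit called 0.0216% of 13888 rows. With a correction for GC content and length the log2 fold change was 0.40 (edgeR, adjusted p = 0.10), and 0.368% of all rows were called. Leaving out each library in turn gave 0.50 to 0.95, and *Chd1* was called by edgeR without *Chaserr*-/- replicate 1 (0.50, adjusted p = 0.049) and without *Chaserr*-/- replicate 2 (0.95, adjusted p = 0.016). The share of all rows called in those fits is not given here. Cell type markers also differed between these cultures: 7 macrophage genes summed to 527 to 585 TPM in *Chaserr*-/- against 786 to 928 TPM in WT mEFs, 6 fibroblast genes to 3340 to 4013 against 4328 to 4474 TPM, and 5 muscle genes to 436 to 530 against 662 to 1379 TPM. Their part in the *Chd1* value was not tested.

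In set d the *Chd2* transcript rose further, from between 7.43 and 7.80 to between 26.85 and 31.04 TPM, and *Chd1* measured 25.67, 29.67 and 23.46 TPM against 24.12, 22.74 and 24.80 TPM in WT. These *Chd1* groups overlapped (log2 0.13, 95% interval -0.10 to 0.37). *Chd9* measured 11.75, 13 and 13.09 TPM against 14.95, 14.45 and 16.58 TPM, apart and lower by 0.28 on the log2 scale (SE 0.10, adjusted p = 0.34 by edgeR). *Chd5* was apart and higher, at 0.47, 0.45 and 0.29 against 0.21, 0.17 and 0.27 TPM (adjusted p = 0.40), on 12 to 39 counts per library. Of all rows, 13.8% did not overlap in this comparison (6.44% higher and 7.4% lower). Markers moved in set d too: 6 fibroblast genes had a median log2 of -0.61, 7 macrophage genes -0.47 and 5 muscle genes 0.66, and their part in the *Chd9* and *Chd5* values was not tested.

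**Figure D4:**
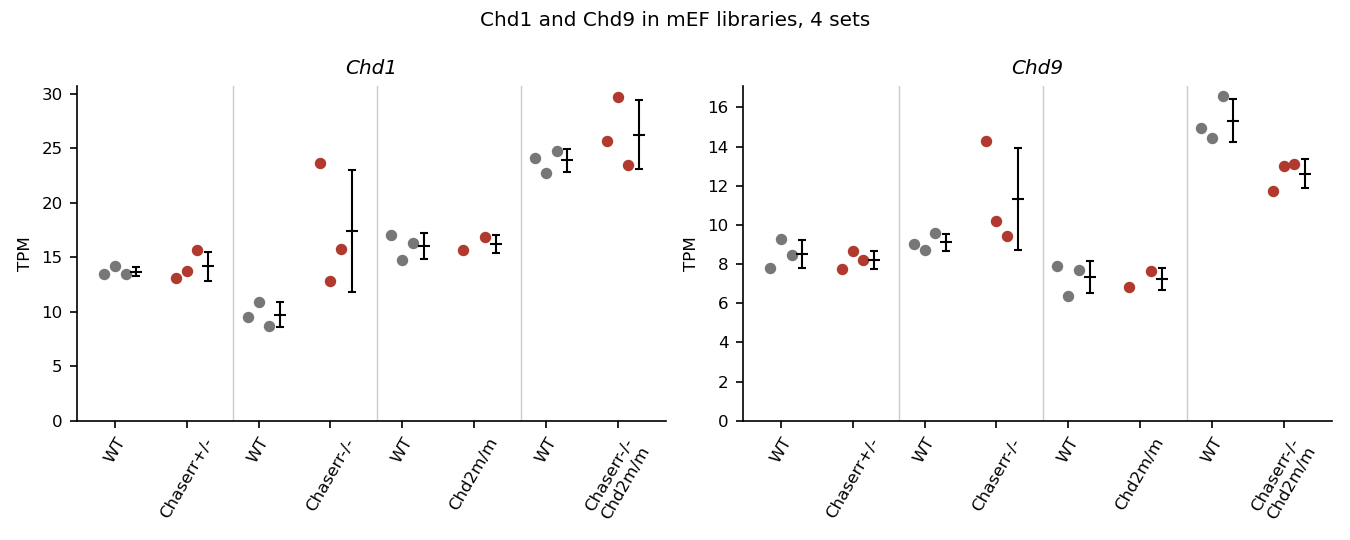
TPM of *Chd1* (left) and *Chd9* (right) in all mEF libraries, with sets a to d from left to right separated by lines, WT in grey and mutants in red, and the mean with its SD beside each group. *Chd1* stood at 12.79 to 23.69 TPM in *Chaserr*-/- mEFs, above its own WT of 8.72 to 10.94 TPM and not above the WT of set d at 22.74 to 24.80 TPM.

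The effects of the genotypes were compared directly in a fit of all mEF libraries. The *Chd1* log2 fold change in *Chaserr*-/- mEFs exceeded that in *Chaserr*-/- *Chd2*m/m mEFs by 0.64 (SE 0.20, adjusted p = 0.0394), that in *Chd2*m/m mEFs by 0.76 (adjusted p = 0.0354) and that in *Chaserr*+/- mEFs by 0.75 (adjusted p = 0.0255). All 3 differences rest on the same 6 libraries of set b. *Chd9* differed between *Chaserr*-/- and *Chaserr*-/- *Chd2*m/m mEFs by 0.53 (SE 0.16, adjusted p = 0.0314). In the same contrasts 5 muscle markers had medians of -1.71, -1.04 and -1.89, with 5, 3 and 5 called lower, and their part in these values was not tested. Of all 15124 rows, 15.6%, 11% and 13.3% were called in these 3 contrasts (10.2%, 7.14% and 7.93% higher). Without *Chaserr*-/- replicate 1 no member was called in any of them, and *Chd1* stood at 0.37, 0.48 and 0.48. In the first contrast no member was called either without WT replicate 5 of set b, without *Chaserr*-/- *Chd2*m/m replicate 1, or without WT replicate 1 or 3 of set d. In the second it was so without WT replicate 4 or 6 of set b or without any single library of set c, and in the third without WT replicate 6 of set b, *Chaserr*+/- replicate 1 or WT replicate 1 or 3 of set a. With the correction for GC content and length no member was called in any of them, and *Chd1* stood at 0.24, 0.35 and 0.39 and *Chd9* at 0.14.

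The shares of the summed TPM of *Chd1* to *Chd9* include *Chd2*, so that its rise alone lowers every other share. In *Chaserr*-/- mEFs subfamily I held 18.5% ± 3.05 of the summed TPM against 9.43% ± 0.46 in WT (SD, n = 3), and subfamily II 59.1% against 67.5%. *Chd1* alone held 9.39% ± 2.66 against 5.88% ± 0.66. In *Chaserr*-/- *Chd2*m/m mEFs subfamily I held 25.7% against 17.2%, while *Chd1* held 12.4% against 13.1%. With *Chd2* left out of the sum, *Chd1* held 14.3% ± 1.72 against 13.6% ± 1.21 there, and 10.3% ± 2.97 against 6.10% ± 0.67 in *Chaserr*-/- mEFs. Groups of 3 against 3 cannot go below p = 0.1 in a two-sided exact permutation test, which is the value each of these subfamily differences and the *Chd1* difference in *Chaserr*-/- mEFs gave. The *Chd1* share in *Chaserr*-/- *Chd2*m/m mEFs gave an exact p = 0.7, and 0.6 without *Chd2* in the sum.

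No gene of the NuRD, SNF2 or FACT and H3.3 lists was called in any of the 7 mutant comparisons with edgeR, where 0% to 0.173% of all rows were. In *Chaserr*-/- mEFs 7 of 12 NuRD and ChAHP partners and 10 of 19 SNF2 ATPases passed an unadjusted p under 0.05. Of 6 FACT and H3.3 genes 0 did, beside 33.9% of all rows. In the contrast of *Chaserr*-/- with *Chaserr*-/- *Chd2*m/m mEFs, 3 of 12 NuRD and ChAHP partners were called higher and 3 lower, and 5 of 19 SNF2 ATPases higher and 3 lower, beside 15.6% of all rows. Called rows fell from 2352 to 314 there with the correction for GC content and length. *Hdac2* differed by 1.00, *Smarca5*, the ISWI motor, by 1.23, *Atrx* by 1.59, and *Mbd3*, a NuRD scaffold subunit, by -0.71 on the log2 scale.

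Chromatin accessibility at the starts of the members was read from peaks that the authors called in each of 12 ATAC-seq libraries of mEFs (18661 to 93597 peaks). A peak within 300 bases of an annotated start was present at 35.4% to 63.7% of 22238 protein-coding genes. *Chd1*, *Chd6* and *Chd9* had one in all 12 libraries, *Chd4* in 11, *Chd7* in 10, *Chd3* in 7, *Chd5* in 1 and *Chd8* in 0. Median fold enrichment over local background at these peaks was 14.7 for *Chd6*, 12.8 for *Chd9*, 8.73 for *Chd1*, 5.61 for *Chd4*, 4.99 for *Chd7* and 3.78 for *Chd3*. The *Chd3* peaks counted here had summits 4258 to 4324 bases into the gene, near an internal annotated start. The strongest *Chd3* peak within 10000 bases, with a median enrichment of 8.79, lay 2850 to 2907 bases into the gene in all 12 libraries. For *Chd9* in replicate 3 of set d, the peak scored lay 126200 (WT) and 126130 bases (*Chaserr*-/- *Chd2*m/m) into the gene, near an internal annotated start. The strongest *Chd9* peak within 10000 bases had its summit at -73 to 61 bases in all 12 libraries, with a median enrichment of 12.8. At *Chd8* the strongest peak within 10000 bases had its summit at -6803 to -6739 bases from the annotated start, upstream of it, in all 12 libraries, with a median enrichment of 14.1. The *Chd8* sequence printed above holds no CG dinucleotide and had no peak, although *Chd8* stood at 13.85 to 23.65 TPM in WT mEFs. *Chd5*, with 10 CG dinucleotides upstream, had a start peak in 1 library. A link of CG dinucleotides to peaks was not tested, nor was which start of *Chd8* is used in mEFs. *Chd5*, at or below 0.36 TPM in WT mEFs, had its strongest peak at -5541 to -5473 bases in 11 libraries.

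The genotypes gave like enrichments at the *Chd1* start. It was 9.68 ± 0.81 in *Chaserr*-/- and 9.46 ± 2.26 in WT mEFs of set b, and 8.49 ± 0.98 in *Chaserr*-/- *Chd2*m/m and 8.54 ± 1.56 in WT mEFs of set d (SD, n = 3 each). Each difference was smaller than the spread between replicates, and the number of peaks differed between libraries, so these values are a description.

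The RIP libraries did not carry the markers of a neuroblastoma line alone. In all 6, markers of adult brain were present: *Mbp*, the main myelin protein, stood at 515 and 404 TPM in input, 1293 and 1149 TPM in CHD2 and 2509 and 1909 TPM in IgG libraries. *Slc17a7*, the vesicular glutamate transporter of cortical neurons, measured 222 and 166 TPM in input, 552 and 476 TPM in CHD2 and 1028 and 813 TPM in IgG libraries. The summed level of 6 glial markers was 525 to 671 TPM in input, 1468 to 1709 TPM in CHD2 and 2439 to 3262 TPM in IgG libraries, against 7468 to 13012 TPM in WT brain. Of 16 neuronal and glial markers, 15 were called higher in IgG than in input (median log2 1.80), and all 16 lay lower in CHD2 than in IgG (median -0.94). The exception between IgG and input was *Tubb3*, which stood at 683 and 751 TPM in input and 612 and 583 TPM in IgG libraries. The order of the 3 kinds of library was thus the same for nearly every brain marker, and RIP values of genes that are high in brain are given here beside it.

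Against IgG, *Chd1* was the only member called in the CHD2 RIP without a replicate block, at a background of 11.5% of 14906 rows (11.1% higher). *Chd1* measured 15.51 and 18.70 TPM in CHD2, 2.15 and 6.20 TPM in IgG and 4.10 and 9.5 TPM in input libraries. Its log2 fold change over IgG was 1.87 (SE 0.48, adjusted p = 0.0398), and over input 0.87 (95% interval -0.19 to 1.93). *Chd2* itself stood at 21.02 and 20.58 TPM in CHD2 and 3.99 and 4.98 TPM in IgG libraries. When 1 library was left out, which leaves 1 in its group, *Chd1* ran from 1.34 to 2.50 over IgG, and the members called changed. The input titles tie the numbers to RIP 1 and RIP 2. With the replicate number as a block, *Chd1* (2.01), *Chd4* (1.10), *Chd6* (1.39), *Chd7* (1.55) and *Chd9* (1.59) were called over IgG, at adjusted p from 0.0047 to 0.017 by edgeR and a background of 25.2%. With a correction for length or for GC content and length *Chd1* was not called (1.29 and 0.99, adjusted p = 0.073 and 0.11).

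*Chd9* measured 22.54 and 41.65 TPM in CHD2, 5.99 and 12.91 TPM in IgG and 5.12 and 13.28 TPM in input libraries. *Chd6* measured 27.95 and 56.22 TPM, 10.63 and 15.93 TPM, and 5.22 and 15.19 TPM in the same order. Both lay above IgG and above input in every library, with log2 fold changes over IgG of 1.58 (adjusted p = 0.063) and 1.47 (adjusted p = 0.072). Without the block *Chd6* was the only member called against input, at 1.61 (adjusted p = 0.049, background 15.1%, 8.91% higher), and the call was lost when any 1 of the 4 libraries was left out. With the replicate block *Chd6* (1.62) and *Chd9* (1.36) were called against input, at a background of 28.2%. *Chd7* (1.47) and *Chd4* (1.10) passed an unadjusted p under 0.05 against IgG, and *Chd8* stood at 0.33 with a 95% interval from -0.52 to 1.19. In all 3 kinds of library, replicate 2 was higher than replicate 1 for *Chd1*, *Chd4*, *Chd6*, *Chd7*, *Chd8* and *Chd9*.

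*Chd3* and *Chd5* lay on the other side. *Chd3* measured 98.41 and 85.65 TPM in CHD2, 150.19 and 109.41 TPM in IgG and 41.28 and 47.65 TPM in input libraries, and *Chd5* 20.16 and 21.21, 28.11 and 25.97, and 8.66 and 9.47 TPM. Both were highest in IgG and lowest in input, the order of the brain markers. Without the block they were the members called between IgG and input (log2 1.23 and 1.25, adjusted p = 0.031 and 0.022, background 24.6%, 14.3% higher), and against IgG the CHD2 libraries were at -0.71 and -0.59. When 1 library was left out, which leaves 1 in its group, *Chd3* ran from 0.89 to 1.45 and *Chd5* from 1.10 to 1.33 for IgG over input. The members called changed between these fits. With the replicate block *Chd3* and *Chd5* were called higher and *Chd1*, *Chd4* and *Chd7* lower (-1.07, -0.97 and -0.995), at a background of 36.7%. These are also the members with the highest GC content, 56.1% and 57.0%, against 43.6% for *Chd9* and 44.0% for *Chd1*. The part of brain RNA, GC content or length in these values was not tested.

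**Figure D5:**
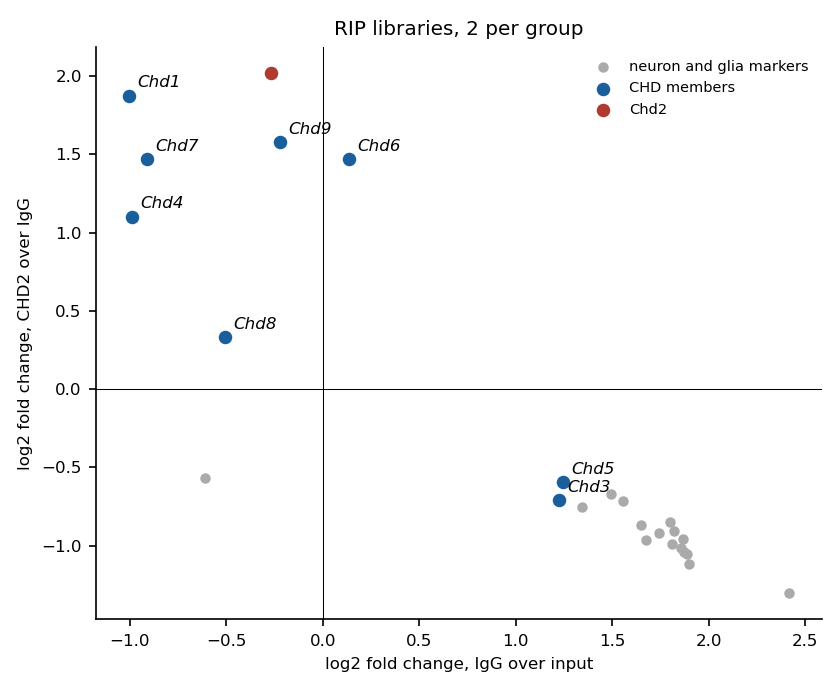
Log2 fold change of IgG over input (x axis) against that of CHD2 over IgG (y axis) for the 8 members (blue), *Chd2* (red) and 16 neuronal and glial markers (grey), from 2 libraries a group. *Chd3* and *Chd5* lay at the edge of the brain markers at 1.23 and 1.25 on the x axis, and the other 6 members lay above 0 on the y axis.

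The median log2 fold change of the 8 members over IgG was 1.29, against 0.02 over all rows. It was 0.66 with the length correction and 0.65 with the correction for GC content and length. Each member has a mean transcript longer than that of 94.4% of rows. Among the lists, 1 of 12 NuRD and ChAHP partners was called higher in CHD2 than in IgG, *Gatad2b* (2.13, adjusted p = 0.0072). Of 19 SNF2 ATPases, 4 were called higher, with *Ino80* at 1.54, *Srcap* at 1.42 and *Smarcad1* at 1.40, and of 6 FACT and H3.3 genes none was. Of all rows 11.1% were called higher in this comparison, and the list values are without a length correction. *H3f3b*, a histone H3.3 gene, stood at -1.91 for CHD2 over input and at -1.67 for IgG over input.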

How the data were processed

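The authors aligned reads to RefSeq transcripts with Bowtie2 and RSEM, and deposited an expected count and a TPM for each of 24990 Entrez rows, with no normalization between libraries. ATAC-seq peaks were called by the authors with MACS2, library by library, on mm9, and the deposited score, fold enrichment (a ratio of signal to local background) and -log10 of p and q were read as given. The deposited RIP tables count transcripts, whereas the published RIP analysis counted gene bodies. Symbols matched 95.2% of rows.

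Expected counts were rounded and tested with edgeR 4.0.16 in R 4.3.3 (filterByExpr, TMM, quasi-likelihood, Benjamini-Hochberg over all rows, call at an adjusted p under 0.05), each mutant against its own WT, the WT tissues together, the 6 RIP libraries together, and all mEFs together for differences between effects. Levels are TPM. Scripts were tested on simulated data. Alternatives were DESeq2 1.42.0, no filter, leaving out each library, the replicate block, and lowess corrections for length, or for GC content and length (limma 3.58.1); the last, the added WT mEFs and the other peak settings were chosen after seeing the data. Same-numbered brain libraries deviated together (correlations 0.437, 0.529 and 0.747), so their numbers were taken as pairs, although number 3 is also another kit. RIP numbers were taken as pairs from the input titles (correlations 0.174, 0.159 and 0.311). Members, gene lists (NuRD and ChAHP partners, SNF2 ATPases, FACT and H3.3) and cell type markers were chosen with earlier results of these data known. Named were all members, and of each list up to 3 called genes of lowest p per comparison. *Adnp* and *Pdgfra* were not analysed here, and the nearest pattern to *Chd9* and the sequence upstream of *Chd1* are not reported here. The 4C samples were not used here. Intervals are 95%.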

Additional observations from a re-analysis of the deposited data

Results flagged for a closer look

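The effects of the genotypes differed for *Chd1* by 0.64 between *Chaserr*-/- and *Chaserr*-/- *Chd2*m/m mEFs, by 0.76 between *Chaserr*-/- and *Chd2*m/m mEFs and by 0.75 between *Chaserr*-/- and *Chaserr*+/- mEFs, on the log2 scale (edgeR, adjusted p = 0.0394, 0.0354 and 0.0255). *Chd9* differed by 0.53 between *Chaserr*-/- and *Chaserr*-/- *Chd2*m/m mEFs (adjusted p = 0.0314). Each is given here because the difference between the effects passed its own test. The 4 values share the 6 libraries of set b, and none was called with the correction for GC content and length or without *Chaserr*-/- replicate 1.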

How the results depend on the processing

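Counts of members called kept within 1.5 times of those given, in the comparisons of *Chaserr*+/- with WT, in mEFs carrying *Chd2*m/m, alone or with *Chaserr*-/-, and between WT tissues, under DESeq2, no filter on low counts, both corrections and leaving out single libraries. The precision of the RIP and brain values is limited by 2 libraries a group and by the mixed kits, and the depth of *Chd5* in mEFs by its few counts. The cause of the changes below was not tested.

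In *Chaserr*-/- mEFs 1 member was called with DESeq2 (13.7% of all rows) and 1 with no filter (7.54%), and 0 to 1 when single libraries were left out. By share of the summed TPM, 4 members were lower in WT mEFs than in E13.5 embryos, against 8 by TPM. For CHD2 over IgG the count was 4 with DESeq2 (18.8% of all rows) and 4 with no filter (14.1%). It was 2 with the length correction (11.5%) and 0 with the correction for GC content and length. These counts join members called higher and lower, and *Chd1* was not among the 2 with the length correction. Over the alternatives *Chd3* ran from -1.30 to -0.37 and *Chd5* from -1.27 to -0.45, on the side of IgG. For CHD2 over input it was 0 with the length correction and 0 with the correction for GC content and length. For IgG over input it was 4 with no filter and 4 with the correction for GC content and length. The share of all rows was 24.6% in the main fit and is not given here for these 2 settings. Leaving out a single RIP library leaves 1 in its group, and the members called then changed in each RIP comparison. The share of all rows called also moves with the setting, so a count without its share does not describe the members alone. The 3 differences between effects had counts of 0, 0 and 0 with the correction for GC content and length, and of 0 to 3, 0 to 1 and 0 to 1 leaving out single libraries.

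The replicate block treats same-numbered libraries as pairs. It changed no call of a member in the paired brains or in any other mutant comparison. With the block, 5 members were called for CHD2 over IgG (25.2% of all rows), 2 for CHD2 over input (28.2%) and 5 for IgG over input (36.7%). With the block and either correction, 5 were called for CHD2 over IgG and 7 for IgG over input. The share of all rows for these corrected fits is not given here, so their counts do not describe the members alone.

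Values that changed sign, on the log2 scale, were mostly near 0. With the correction for GC content and length, *Chd1* stood at -0.012 in E13.5 embryos (-0.012 with the replicate block as well) and 0.029 in brain, and *Chd3* at 0.16 in *Chaserr*-/- mEFs. Between brain and E13.5 embryos *Chd3* stood at 0.10 with DESeq2, 0.018 with the length correction, 0.0059 with that for GC content and length and 0.20 with the TruSeq library alone, and *Chd9* in WT mEFs over E13.5 embryos at 0.040 with the length correction. For CHD2 over IgG *Chd8* stood at -0.29 with the length correction and -0.28 with that for GC content and length (-0.29 and -0.27 with the replicate block as well). For CHD2 over input, the length correction gave *Chd1* -0.021, *Chd3* -0.32, *Chd4* -0.64, *Chd5* -0.38 and *Chd7* -0.58, and together with the replicate block *Chd3* -0.32, *Chd4* -0.63, *Chd5* -0.36 and *Chd7* -0.58. The correction for GC content and length gave *Chd1* -0.29, *Chd4* -0.46, *Chd7* -0.37 and *Chd9* -0.068, and together with the block -0.26, -0.43, -0.34 and -0.079. *Chd4* stood at -0.024 with DESeq2 and -0.18 with no filter. For IgG over input *Chd6* stood at -0.14 with no filter, -0.24 and -0.28 with the corrections, and -0.17 and -0.21 with these and the block.

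Leaving out single libraries gave, in *Chaserr*+/- embryos, -0.0064 to 0.034 (*Chd1*, E9.5), -0.30 to 0.025 (*Chd5*, E9.5) and -0.19 to 0.0044 (*Chd5*, E13.5). It gave *Chd1* -0.29 to 0.11 in brain, -0.056 to 0.066 in *Chaserr*+/- mEFs and -0.013 to 0.060 in *Chd2*m/m mEFs, *Chd5* -0.46 to 0.13 in *Chd2*m/m mEFs, and *Chd3* -0.20 to 0.048 between brain and E13.5 embryos. In the RIP it gave *Chd8* -0.28 to 0.51 over IgG, and over input *Chd4* -0.60 to 0.36 and *Chd7* -0.20 to 0.81 for CHD2, and *Chd6* -0.63 to 0.79 and *Chd9* -0.93 to 0.31 for IgG.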
